A study of Mus musculus with 4 samples.

Results

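Thick ascending limb cells were picked out of 2 droplet single-cell RNA libraries of newborn mouse kidney by their transcripts. A cell counted as a member when it held at least 3 UMIs (unique molecular identifiers, each standing for 1 captured RNA molecule) of Slc12a1, at least 1 UMI of Umod, Cldn19, Ptger3, Ppp1r1b or Cldn10, no UMI of Slc12a3 and at most 2 UMIs of Aqp2. Before that a cell had to pass a filter of 1000 UMIs, 500 detected genes and a mitochondrial share below 15%. These rules left 662 member cells among 36833 kept cells, 298 in the control library and 364 in the floxed library.

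Both libraries came from whole kidneys of newborn mice, and 10000 cells were loaded for each. The control genotype carried Six2Cre, a Cre recombinase driven by the Six2 gene and active in the progenitors that form the nephron. The second genotype carried Six2Cre and floxed Tet2 and Tet3 (Six2CreTet2/3f/f), and its library is called floxed here. Both genotypes carried the Cre, and a library without it was not analysed here. With 1 library for each genotype, nothing below has a replicate check, and genotype and library cannot be told apart. The 95% intervals reflect counting error alone. The 2 bisulfite samples of the series were not analysed here.

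The thick ascending limb is the diluting segment of the nephron. Its cells take up sodium, potassium and chloride through the transporter NKCC2, which Slc12a1 encodes, and let calcium, magnesium and sodium pass between cells through claudins. They also secrete uromodulin, the most abundant protein of normal urine. The macula densa is a plaque at the end of the limb that senses salt, and its cells also carry Slc12a1. Tet2 and Tet3 are dioxygenases that oxidise 5-methylcytosine, a step in DNA demethylation.

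The matrices held 25736 control and 22543 floxed barcodes, more than the cells loaded, with 197745868 and 115427704 UMIs. Member cells were deep in comparison with kept cells at large. Their median was 15844 UMIs in the control (lowest 1669, highest 71952) and 11174 in the floxed library (1231 to 68593), against 6213 and 4898 over all kept cells. Mitochondrial genes took a median of 10.1% and 9.67% of member UMIs. The libraries shared 99 barcode sequences among kept cells and 0 among member cells.

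Of the targeted genes, Tet3 was lower in the floxed library, short of the rule of size used below, and Tet2 was not lower. Tet3 stood at 69.7 CPM in control and 39.3 CPM in floxed cells, 1.77-fold lower (95% interval 1.5 to 2.1). CPM is the UMI count of a gene per 1000000 UMIs of the member cells of a library. In stroma, which lies outside the Six2 lineage, Tet3 stood at 61.3 and 42.0 CPM, and the log2 ratio in limb cells minus that in stroma was -0.28 (-0.55 to -0.01). Tet2 stood at 41.6 and 47.7 CPM, and Tet1, which was not targeted, at 15.2 and 21.3 CPM. The libraries count tags near the 3′ end of transcripts, which can lie outside the deleted part, so the genotype is not checked by them.

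The 250 bases before the start of Slc12a1 and of Umod are shown because the 2 genes mark the segment. Both are genes of the membership rule. Umod stood lower in the floxed library, and Slc12a1 stood near its control level. Both come from RefSeq (GRCm38.p6). Slc12a1 (ENSMUSG00000027202) is read from the plus strand and its stretch lies at chr2:125152350-125152599. Umod (ENSMUSG00000030963) is read from the minus strand and its stretch lies at chr7:119479263-119479512. Capitals mark every CG, the dinucleotide that carries most DNA methylation in mammals, and every GTTAAT or its reverse complement, a motif found in promoters of tubule genes.

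Slc12a1: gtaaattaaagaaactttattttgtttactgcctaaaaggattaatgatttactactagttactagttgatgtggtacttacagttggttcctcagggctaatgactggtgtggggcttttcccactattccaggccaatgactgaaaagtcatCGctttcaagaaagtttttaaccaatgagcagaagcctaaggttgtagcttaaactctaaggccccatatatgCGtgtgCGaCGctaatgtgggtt
Umod: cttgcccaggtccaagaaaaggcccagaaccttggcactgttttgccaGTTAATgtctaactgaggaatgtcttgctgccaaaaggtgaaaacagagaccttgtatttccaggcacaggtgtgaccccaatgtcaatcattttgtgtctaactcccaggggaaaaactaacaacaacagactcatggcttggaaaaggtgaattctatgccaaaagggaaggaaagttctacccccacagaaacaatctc

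The Slc12a1 stretch holds 4 CG and no GTTAAT, and the Umod stretch holds 0 CG and 1 GTTAAT. Of 32841 promoter stretches of this length, 92.1% hold at least 1 CG, with a median of 6. GTTAAT occurs on either strand in 6.43% of them. The motifs do not overlap one another here, and a match in the letters is a description only.

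The label was checked against markers that the rule did not use. Irx1 and Irx2, transcription factors of the intermediate nephron, stood at 210 and 104 CPM in control limb cells and at 241 and 136 CPM in floxed ones. In 4 comparison classes picked by count rules (distal convoluted tubule, principal cell, proximal tubule and stroma) Irx1 stood between 0 and 9.32 CPM. Cldn16, the claudin of magnesium and calcium reabsorption, stood at 70.0 and 81.9 CPM against at most 2.53 CPM in those classes. Kcnj1, the potassium channel ROMK, stood at 112 and 96.2 CPM, and was nearly as high in distal convoluted tubule cells (105 and 78.3 CPM). Egf, a marker of the mature segment, was scarce, at 3.49 and 2.74 CPM. Ppp1r1b, which the rule did use, was scarce as well, at 2.22 and 2.35 CPM.

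**Figure D1:**
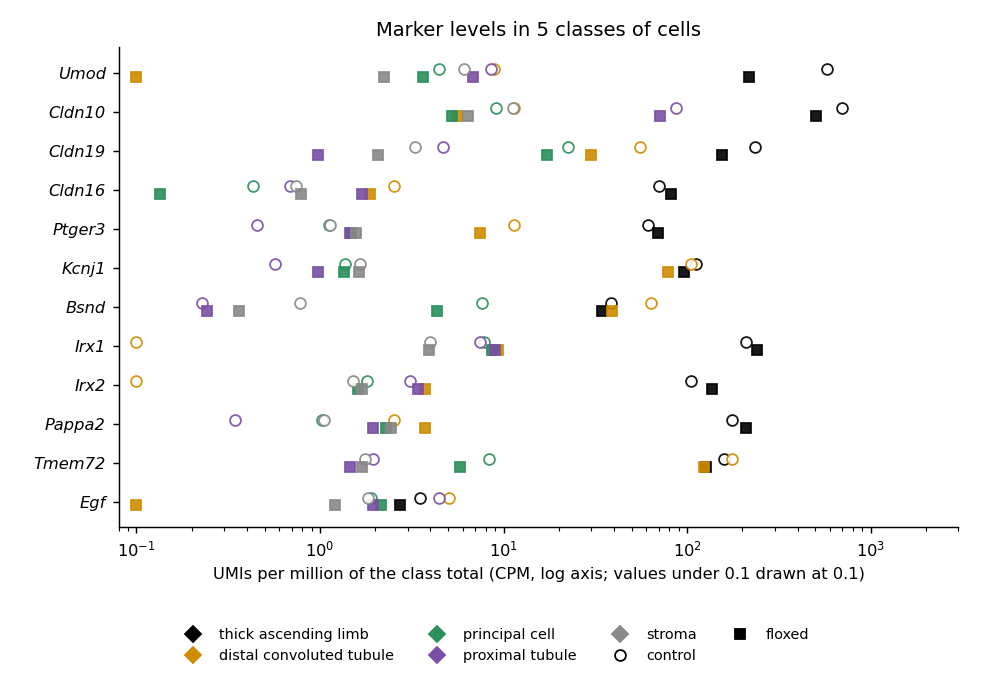
Levels of 12 genes (CPM, log axis) in thick ascending limb cells (black) and 4 comparison classes, with open circles for the control and filled squares for the floxed library. Irx1, Irx2, Cldn16 and Pappa2 are high in limb cells alone among the 5 classes, Kcnj1, Bsnd and Tmem72 are as high in distal convoluted tubule cells, and Egf is low throughout. Umod, Cldn10, Cldn19 and Ptger3 were used to choose the cells.

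The genes farthest above the comparison classes in a restricted ranking were Pappa2, Irx2, Cldn16, Sim2 and Irx1. The ranking took genes at 50 CPM or more in the pooled limb cells. It left out genes of the membership rule and mitochondrial, ribosomal, haemoglobin, Xist, Y-linked and predicted genes. Over both libraries Pappa2, a protease that frees insulin-like growth factors and a macula densa gene, was 63.0 times as high in limb cells as in the highest comparison class. Irx2 was 37.2 times, Cldn16 33.3 times, the transcription factor Sim2 29.6 times and Irx1 27.5 times as high. The gene Eprn followed at 13.1 times. Farther down came Egfl6, a secreted matrix protein (4.68 times), and Plau, the urokinase plasminogen activator (2.96 times). Pdgfa (2.28 times), a growth factor for the surrounding mesenchyme, and the junction protein gene Cgnl1 (2.20 times) were next to them. These ratios compare classes chosen on expression and are a description.

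Member cells made up 1.41% of the kept cells in the control (Clopper-Pearson interval 1.25 to 1.57) and 2.33% in the floxed library (2.10 to 2.58), a ratio of 1.65 (1.42 to 1.93). The ratio was 1.18 with a looser cell filter, 1.30 over the 10000 deepest barcodes of each library, 2.04 when Slc12a3 and Aqp2 both had to be 0, and 4.56 when cells with 3 or more UMIs of other classes' markers were removed. Of the cells with at least 3 UMIs of Slc12a1 (378 and 469), 31 control and 73 floxed cells were dropped for want of a second marker. A further 23 and 12 held Slc12a3, and 26 and 20 held more than 2 UMIs of Aqp2. Just inside the threshold, with exactly 3 UMIs of Slc12a1, lay 16 cells in each library, and just outside, with 2 UMIs, lay 54 control and 28 floxed cells.

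The comparison of the libraries asks which genes of the limb differed with Tet2 and Tet3 floxed. Genes counted as measured when 1 of the libraries reached 25 CPM, which 5620 did. A gene could so be measured through the library where it stood higher. By a rule of size, that the 95% interval of the ratio lie wholly beyond 1.5-fold, floxed cells had more of 73 genes (1.3%) and less of 128 genes (2.28%), 201 in all (3.58%). Below, genes past this rule are said to be called. The median log2 ratio of all measured genes was -0.03. With TMM scaling the counts were 95 higher and 101 lower.

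**Figure D2:**
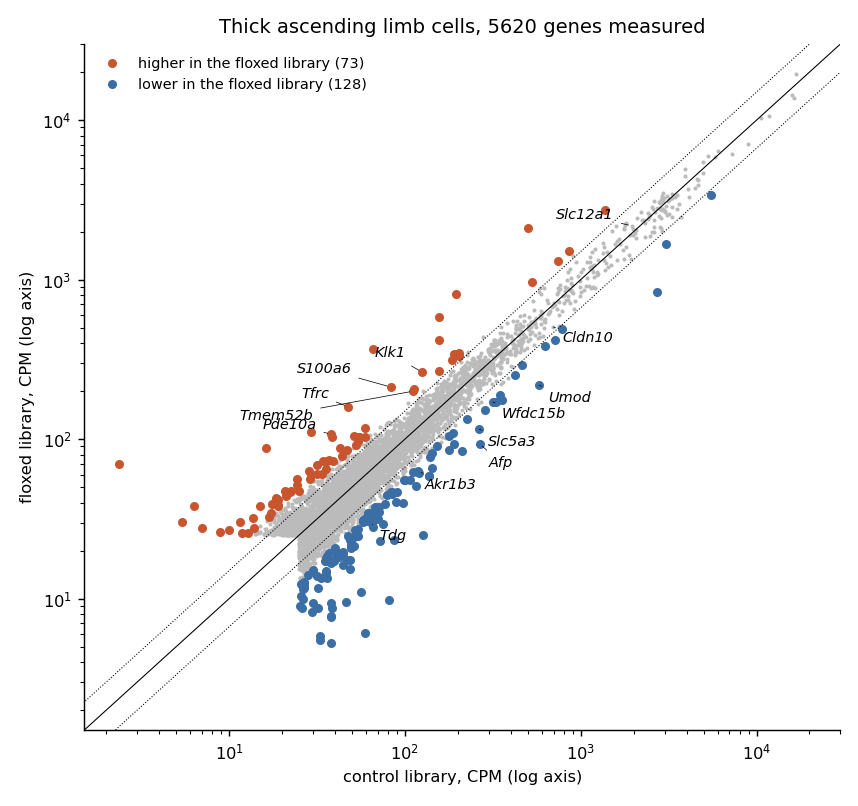
Each point is 1 of 5620 genes in thick ascending limb cells, with its level in the control on the x axis and in the floxed library on the y axis (CPM, log axes). Dotted lines mark 1.5-fold. Slc12a1 lies near the diagonal, Umod, Slc5a3 and Wfdc15b below it, and Pde10a, Tfrc, S100a6 and Klk1 above it.

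Slc12a1, on which the cells were chosen in both libraries, stood at 1961 and 2171 CPM as a description, and per cell it ranged from 3 UMIs up to 302 in the control (median 27) and 186 in the floxed library (median 22). Of 17 salt transport genes, all at 5 CPM or more, 16 reached the 25 CPM needed for a call and none was called, where 3.58% of all measured genes were. Their median log2 ratio was 0.09, against -0.05 for all 10712 genes at that level. Atp1b1, the beta subunit of the sodium pump, stood at 2603 and 3117 CPM. Bsnd, which encodes barttin, a subunit of basolateral chloride channels, stood at 38.4 and 34.4 CPM. Kcnj16, a basolateral potassium channel subunit, stood at 82.5 and 125 CPM, 1.52-fold higher (1.35 to 1.71), short of the rule. The kinase genes that regulate NKCC2 stood in both directions: Wnk1 at 265 and 236 CPM, Wnk4 at 106 and 146 CPM, and Stk39 at 99.2 and 87.4 CPM. Of the same list, Oxsr1 had a log2 ratio of 0.47 and Cab39l of 0.23.

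Among the claudins, Cldn10 and Cldn19 stood lower and Cldn16 did not. Cldn10, the sodium-selective claudin, stood at 700 CPM in control and 504 CPM in floxed cells, 1.39-fold lower (1.32 to 1.46). Cldn19, the partner of Cldn16, stood at 235 and 154 CPM, 1.53-fold lower (1.4 to 1.67), while Cldn16 stood at 70.0 and 81.9 CPM, 1.17-fold higher (1.02 to 1.34). Both Cldn10 and Cldn19 are second markers of the membership rule, so their values are a description; with no second marker required their log2 ratios were -0.56 and -0.69, against -0.47 and -0.61. None of 8 tight junction genes at 25 CPM or more was called (3.58% of all measured genes), and the median log2 ratio of the 13 at 5 CPM or more was -0.16. After each cell was thinned to 2000 UMIs, so that depth was equal, 60.5% of control and 49.3% of floxed cells held Cldn10, and 39.9% and 26.7% held Cldn19. In stroma, which should lack them, Cldn10 was found in 2.13% and 1.64% of cells and Cldn19 in 0.693% and 0.473%, thinned alike.

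Single cells often held 1 claudin without the other, in shares that the use of Cldn10 and Cldn19 in the rule bears on. Of 296 thinned control cells 90 held Cldn10 without Cldn16 or Cldn19, 44 held Cldn16 or Cldn19 without Cldn10, 89 held both and 73 neither. Of 359 thinned floxed cells the counts were 105, 64, 72 and 118. The share with both was 30.1% (24.9 to 35.6) in the control and 20.1% (16.04 to 24.6) in the floxed library, and at 2000 UMIs a missing UMI does not show that a cell lacks the transcript.

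Of the 5 second-marker genes of the membership rule, Umod differed most between the libraries. It stood at 581 CPM in control and 217 CPM in floxed cells, 2.67-fold lower (2.5 to 2.86). With no second marker required the log2 ratio was -1.50, against -1.42. A control cell held a median of 3 Umod UMIs (75th percentile 16, highest 105), and a floxed cell a median of 1 (75th percentile 3, highest 52). The 10 cells with the most Umod gave 24.4% of its UMIs in the control and 30.6% in the floxed library. At equal depth 42.9% of control cells (37.2 to 48.8) and 23.4% of floxed cells (19.1 to 28.1) held Umod. Unthinned, the shares were 71.1% and 51.6%.

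Umod was also lower in stroma, which should lack it. Stroma stood at 6.06 and 2.24 CPM, and 1.36% and 0.436% of thinned stroma cells held a UMI. The log2 ratio in limb cells minus that in stroma was 0.00 (-0.52 to 0.52). With member cells that held 3 or more UMIs of other classes' markers removed, which left 52 control and 175 floxed cells, the log2 ratio of Umod was -0.48 and Umod was no longer called. Removing cells in which such markers made up over 0.1% of UMIs, which depends less on depth and left 214 and 308 cells, gave -1.64.

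The other secreted products differed in both directions. Wfdc15b, a protease inhibitor of the WAP family, stood at 317 and 171 CPM, 1.86-fold lower (1.72 to 2.02). Tmem52b, a membrane protein of the distal nephron, stood at 111 and 200 CPM, 1.79-fold higher (1.63 to 1.98), but its direction turned when cells were thinned to 2000 UMIs before they were chosen (log2 ratio -0.60). Without cells holding over 0.1% of UMIs from markers of other classes its log2 ratio was 0.70, against 0.84, short of the rule. Here 11 genes reached 25 CPM, with -0.27 as the middle log2 ratio among them. Tmem52b was called higher and Umod and Wfdc15b lower, where 1.3% and 2.28% of all measured genes were. Umod is a second marker of the membership rule, so its call is a description. Spp1 (osteopontin) stood at 756 and 512 CPM, Kng2 (a kininogen) at 327 and 408 CPM, and Tmprss2 and Hpn, the latter the protease that releases uromodulin, at 76.0 and 50.6 CPM in control and 99.9 and 38.1 CPM in floxed cells. Spp1 was short of the rule (log2 ratio -0.56) but was called in 7 of 15 alternatives, with log2 ratios from -1.35 to 0.13. Without cells holding over 0.1% of UMIs from markers of other classes it was called lower (-0.83).

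Umod did not follow Slc12a1 in the same way in both libraries. Control cells with 0 to 1, 2 to 4 and 5 or more Slc12a1 UMIs after thinning held Umod at 264, 626 and 739 CPM. Floxed cells held it at 236, 394 and 175 CPM. In the control the level was higher in the upper groups than in the lowest, and in the floxed library the 157 cells richest in Slc12a1 had less Umod (132 to 228) than the 132 cells in the middle (322 to 477). Such intervals cover counting error of the pooled UMIs and not the spread among cells. Cldn10 stood at 446, 830 and 878 CPM in the control and at 429, 542 and 576 CPM in the floxed library. Kcnj1 was higher in the group richest in Slc12a1 than in the poorest in both libraries, at 172 against 40.5 CPM and at 134 against 35.7 CPM. Pappa2 stood at 366 against 162 CPM in the control and at 271 against 107 CPM in the floxed library. Slc12a1, Umod and Cldn10 are genes of the membership rule, so cells with little Slc12a1 after thinning were still required to hold a second marker.

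**Figure D3:**
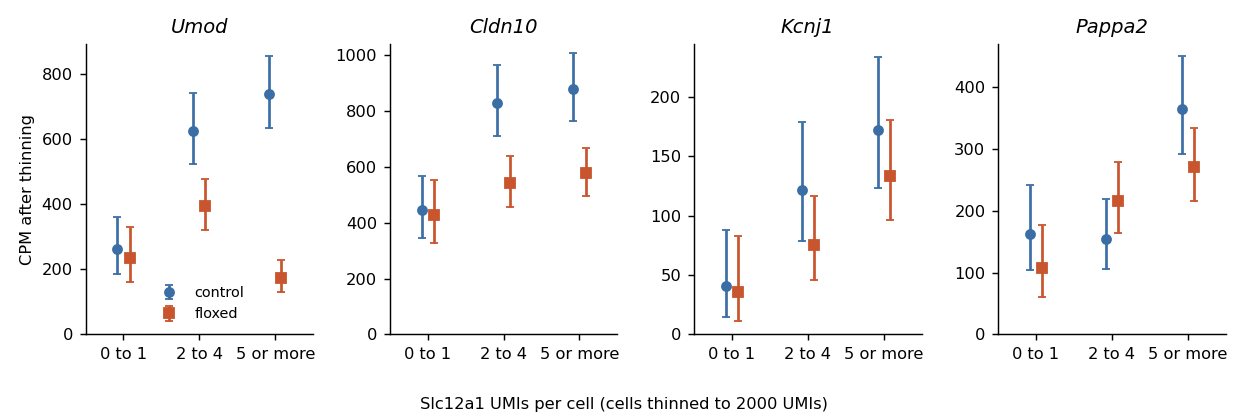
Levels (CPM after thinning, with 95% Poisson intervals) of Umod, Cldn10, Kcnj1 and Pappa2 in cells grouped by their Slc12a1 UMIs after thinning to 2000 UMIs, control in blue circles and floxed in orange squares. In the group with 5 or more UMIs Umod stands at 739 CPM in control and 175 CPM in floxed cells, while the Kcnj1 intervals overlap.

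Some genes differed between cells with and without Umod in the same direction in both libraries. The cells were divided by their thinned Umod count, and other genes were measured in the UMIs that thinning had not drawn. There were 84 control and 41 floxed cells with 2 or more Umod UMIs, and 169 and 275 with 0. Of 5206 genes at 25 CPM or more in either set of both libraries, 12 were higher in the cells with Umod in both libraries (0.231%) and 32 were lower (0.615%), beyond 1.5-fold by the same rule of size. The 12 include Umod, whose direction the division fixed, and Cldn10, a second marker of the membership rule. Umod itself stood at 1344 and 156 CPM in the control sets and at 954 and 83.6 CPM in the floxed ones. The division is by a measured gene, so these values are a description. A cell with no Umod UMI had to hold another second marker, so the rule bears on Cldn10 and Ptger3 in the 2 sets.

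Genes that went with Umod included the sodium claudin Cldn10 (464 CPM without and 1067 CPM with Umod in control cells, 434 and 771 CPM in floxed cells). Slc5a3, the myo-inositol transporter that cells of the salty medulla use to take up an osmolyte, stood at 177 and 445 CPM in the control sets and at 89.2 and 246 CPM in the floxed sets. Plau stood at 35.2 and 178 CPM in the control and at 73.4 and 183 CPM in the floxed library. The remaining ones were Egfl6, Sim2, Pdgfa, Gclc (an enzyme of glutathione synthesis), Rrm2 (a subunit of ribonucleotide reductase), Cyfip2, Dnm3 and Upp1 (uridine phosphorylase). Pdgfa had the smallest ratio of these in the control, at 1.92 (1.74 to 2.13), and Plau the largest, at 5.05 (4.05 to 6.34).

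Genes that were lower in the cells with Umod included macula densa genes. Nos1, the neuronal nitric oxide synthase of the macula densa, stood at 30.01 CPM in the control cells without Umod and 4.61 CPM in those with it, and at 45.9 and 4.25 CPM in the floxed library. Pappa2 stood at 269 and 35.8 CPM in the control and at 239 and 104 CPM in the floxed library. Robo2, an axon guidance receptor, stood at 75.8 and 22.5 CPM and at 73.7 and 17.0 CPM. Tmem52b stood at 157 and 34.0 CPM and at 241 and 4.25 CPM, and Calb1, a calcium buffer of the distal nephron, at 62.9 and 16.1 CPM and at 48.3 and 2.12 CPM. The floxed set with Umod held only 470662 UMIs. Its values of a few CPM, also that of Nos1, so rest on very few UMIs, for Calb1 on 1. Pth1r, the parathyroid hormone receptor, stood at 158 and 81.3 CPM and at 204 and 59.5 CPM. The nephron patterning genes Sox9, Wnt4 and Hoxd11 and the kinase gene Wnk1 were also lower in the cells with Umod in both libraries. So were the 4 haemoglobin genes, whose transcripts come from red cells; Hbb-bs stood at 700 and 259 CPM in the control and at 1781 and 255 CPM in the floxed library.

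**Figure D4:**
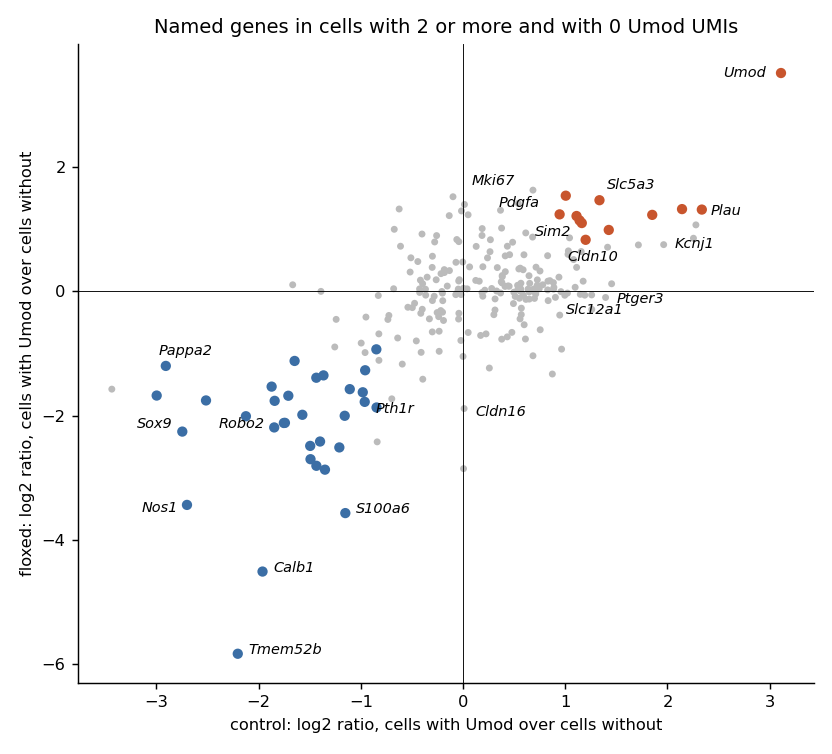
For each named gene, the log2 ratio of its level in cells with 2 or more Umod UMIs over cells with 0, in the control (x axis) and the floxed library (y axis). Orange points were higher and blue points lower beyond 1.5-fold in both libraries; Plau, Slc5a3 and Cldn10 lie at the upper right with Umod, and Nos1, Tmem52b, Calb1 and Pappa2 at the lower left.

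Kcnj1, Ptger3 (a prostaglandin E2 receptor) and Slc12a1 followed Umod in the control but not to that extent in the floxed library. Ptger3 and Slc12a1 are genes of the membership rule, so their values are a description. Kcnj1 stood at 51.6 CPM without and 201 CPM with Umod in the control, and at 88.3 and 149 CPM in the floxed library. Slc12a1 stood at 1486 and 2779 CPM in the control sets and at 2176 and 2035 CPM in the floxed sets. Cldn16 stood at 63.6 and 64.0 CPM in the control and at 86.3 and 23.4 CPM in the floxed library. Irx1 and Irx2 were alike in both sets: Irx1 stood at 206 and 230 CPM in the control and at 235 and 263 CPM in the floxed library.

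The difference between libraries held within each set for some genes and not for others. Slc5a3 was 1.98-fold lower in the floxed library among cells without Umod (1.72 to 2.28) and 1.81-fold lower among cells with it (1.48 to 2.22). Tfrc, the transferrin receptor, was 4.05-fold higher without Umod (3.29 to 5.02) and 2.48-fold higher with it (1.84 to 3.32). Tmem52b was 1.54-fold higher among cells without Umod (1.37 to 1.72), and among cells with it only 2 floxed UMIs were counted. S100a6 was 2.76-fold higher without Umod (2.41 to 3.17) and stood at 40.9 and 21.2 CPM with it.

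Macula densa genes leaned higher, with no gene called, where 3.58% of all measured genes were. Of 10 genes, 7 reached 5 CPM and 4 the 25 CPM needed for a call, and the log2 ratio was positive for each of the 7. Their median was 0.75, against -0.05 for all genes at that level. In distal convoluted tubule cells the 4 members at 5 CPM or more had a median of 0.72. There the whole list summed to only 79.7 and 106 CPM, with Nos1 at 0 in both libraries. In principal cells 4 members had a median of -0.74. In limb cells the median was positive in all 16 alternatives tried (0.49 to 1.40). Nos1 stood at 19.5 CPM in control and 35.2 CPM in floxed cells, 1.8-fold higher (1.43 to 2.29), Ptgs2 (cyclooxygenase 2) at 6.66 and 15.1 CPM, and the transcription factor gene Foxq1 at 46.7 and 78.2 CPM. Pappa2 differed less, at 174 and 209 CPM, and Robo2 stood at 52.0 and 63.4 CPM. At equal depth 10 control cells (3.38%) and 14 floxed cells (3.90%) held both Nos1 and Pappa2, shares whose intervals overlap (1.63 to 6.13 and 2.15 to 6.46). In stroma 0.282% and 0.218% of thinned cells held Nos1.

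Of the hormone receptor and calcium lists, 7 and 5 genes reached 25 CPM and none was called, where 3.58% of all measured genes were. Ptger3 stood at 61.2 and 69.4 CPM and Pth1r at 131 and 175 CPM. Casr, the calcium-sensing receptor that lowers salt transport in this segment, stood at 14.0 and 8.02 CPM and was found in 64 of 298 control and 36 of 364 floxed cells unthinned. Thinned, it was found in 2.70% (1.17 to 5.26) and 1.39% (0.454 to 3.22) of cells, so a difference was not detectable at that depth. The vasopressin receptor gene Avpr2 stood at 3.97 and 1.37 CPM. The median log2 ratio was 0.08 for the 10 hormone and cAMP signalling genes at 5 CPM or more and -0.16 for the 9 calcium and magnesium genes.

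Of the transcription factors 22 reached 25 CPM and none was called, against 3.58% of all measured genes. Of 27 at 5 CPM or more 12 had a positive and 15 a negative log2 ratio, with a median of -0.05. Tfcp2l1, a factor of the distal nephron and collecting duct, stood at 278 and 437 CPM, 1.57-fold higher (1.48 to 1.68). Tfap2b stood at 240 and 320 CPM. Ppargc1a, the coactivator of mitochondrial biogenesis, stood at 170 and 116 CPM. Pax8, a factor of the nephron lineage, stood at 66.5 and 51.0 CPM.

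Slc5a3 and Akr1b3, genes of osmolyte handling, were lower in the floxed library. Slc5a3 stood at 265 CPM in control and 115 CPM in floxed cells, 2.3-fold lower (2.09 to 2.53). Akr1b3, the aldose reductase that makes sorbitol, stood at 118 and 63.0 CPM, 1.88-fold lower (1.65 to 2.15). The difference was smaller in stroma: the log2 ratio in limb cells minus that in stroma was -0.83 (-1.08 to -0.59) for Slc5a3 and -0.93 (-1.15 to -0.70) for Akr1b3. The betaine transporter gene Slc6a12 had 37 UMIs in the control and 5 in the floxed library. The taurine transporter gene Slc6a6 stood at 54.1 and 41.1 CPM, and Nfat5, the transcription factor that senses tonicity, at 132 and 116 CPM. Apart from Akr1b3, which stood in the thin limb list, these genes were chosen after their values or that of Slc5a3 had been seen.

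Among the highest ratios were genes with known roles in iron uptake, signalling and epithelial stress. Tfrc stood at 47.6 CPM in control and 160 CPM in floxed cells, 3.35-fold higher (2.93 to 3.84). Pde10a, a phosphodiesterase, stood at 38.1 and 108 CPM, 2.82-fold higher (2.42 to 3.3). S100a6, a calcium-binding protein raised in injured tubules, stood at 82.8 and 212 CPM, 2.56-fold higher (2.31 to 2.85). Each of these was called in all 15 alternatives tried for single genes. With haemoglobin, mitochondrial and predicted genes and those far below a comparison class left out of the ranking, the others among the 12 highest were Cntnap2 (5.62-fold), Wnt10a (3.98-fold), the cell cycle inhibitor Sfn (2.93-fold), the ephrin receptor Ephb3 (2.70-fold), Akr1c19 (2.68-fold), the chromatin protein Hmga1 (2.62-fold) and Fam69a (2.57-fold). Wnt10a, a Wnt ligand, had 44 and 142 UMIs and stood at 1.86 CPM or less in the comparison classes. Tpm3-rs7 and Eif3j2 also stood there, at 29.5-fold and 6.04-fold, but both genes have close copies, between which the assignment of reads is uncertain.

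With the same kinds left out, several of the 12 lowest ratios belonged to genes of endothelium. Plvap, Kdr, Cd93, Nes and Gimap6, known in blood vessels, were 4.36-fold, 2.94-fold, 3.59-fold, 3.66-fold and 2.8-fold lower, from 25.2 to 38.4 CPM in the control to 8.21 to 8.996 CPM in the floxed library. The 6 endothelial markers summed to 222 CPM in control and 88.8 CPM in floxed limb cells, and the 9 proximal tubule markers to 279 and 56.1 CPM. Endothelial sums were lower in the comparison classes too. They stood at 221 and 107.5 CPM in principal cells and 181 and 103 CPM in proximal tubule cells. In stroma they stood at 122 and 82.9 CPM, and in distal convoluted tubule cells at 248 and 224 CPM. Once cells with over 0.1% of UMIs from other classes' markers had been removed, Plvap, Kdr, Cd93, Nes, Gimap6, Rflnb and Rsad2 were no longer called, and none of them reached 25 CPM in that setting. Their log2 ratios were then -1.81 for Plvap (against -2.13), -1.42 for Kdr (-1.56), -1.70 for Nes (-1.87), -1.31 for Cd93 (-1.85), -0.99 for Gimap6 (-1.49), -1.18 for Rflnb (-1.68) and -0.79 for Rsad2 (-1.67). Emp1 (4.02-fold lower), Snhg9 (3.72-fold) and Afp (2.85-fold) still were. The non-coding RNA gene Snhg9 was lower in stroma as well, with a log2 ratio of -1.97. Afp, alpha-fetoprotein, stood at 267 and 93.5 CPM in limb cells and at 7.43 and 3.76 CPM in stroma. Rnaset2b (9.76-fold lower) also has a close copy.

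Red cell transcripts moved the other way. The 5 erythroid markers summed to 921 CPM in control and 3874 CPM in floxed limb cells. Of them 4 were called higher (1.3% of all measured genes). Their sum was also higher in floxed principal cells (1400 and 5477 CPM), proximal tubule cells (3397 and 5097 CPM) and stroma (4150 and 9847 CPM). In distal convoluted tubule cells it was lower (2625 and 1653 CPM). The part of red cell transcripts in other differences was not tested. Leaving haemoglobin, ribosomal, mitochondrial and rule genes out of the total gave a log2 ratio of -1.45 for Umod, against -1.42. The stroma markers summed to 463 and 292 CPM, podocyte markers to 90.1 and 39.9 CPM, macrophage markers to 78.5 and 69.8 CPM, and intercalated cell markers to 11.6 and 40.3 CPM. Slc12a3, which the rule bars, was at 0.

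**Figure D5:**
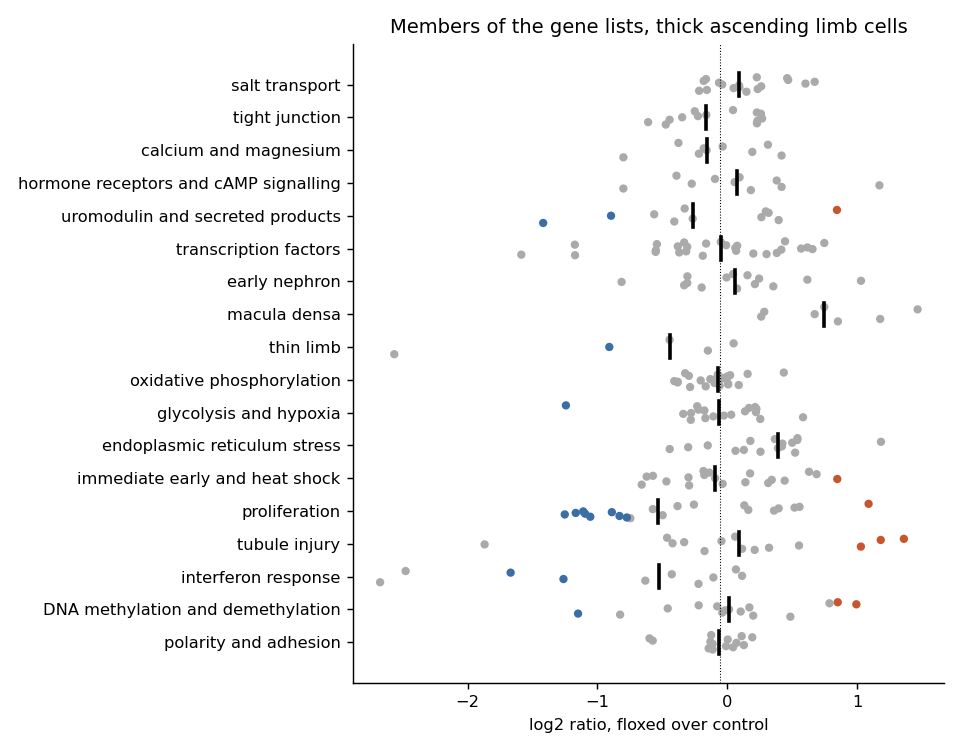
Log2 ratio (floxed over control) of the list members with at least 5 CPM, with black bars for the list medians, orange for members called higher, blue for members called lower and a dotted line for the median of all 10712 genes at that level. Macula densa and endoplasmic reticulum stress genes lie mostly to the right, and proliferation genes include 8 called lower and 1 called higher.

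Of 20 proliferation genes 18 reached 25 CPM, and 8 were called lower and 1 higher, where 2.28% and 1.3% of all measured genes were. The log2 ratio was negative for 13 and positive for 7, with a median of -0.54. Those called lower act in G2 and mitosis: Top2a, Cenpf, Birc5, Ccnb1, Ccnb2, Ccna2, Nusap1 and Ube2c. Ube2c stood at 142 and 65.9 CPM and Cenpf at 178 and 85.5 CPM. Without cells holding 3 or more UMIs of other classes' markers, which left 52 control cells, Top2a (log2 ratio 0.71), Cenpf (0.094) and Nusap1 (0.32) turned direction. Ccna2 did so with thinned cells (0.39). Removing cells with over 0.1% of UMIs from such markers, which depends less on depth, kept the main direction. The log2 ratios were then -0.71 for Top2a, short of the rule, -1.13 for Cenpf and -0.91 for Nusap1. The replication genes Mcm3 (29.5 and 42.2 CPM) and Tyms (54.7 and 70.2 CPM) stood the other way, and Hells, a chromatin remodeller needed for DNA methylation, was called higher at 22.4 and 47.5 CPM. Hells reached 25 CPM in the floxed library alone. Cycling cells, those with 2 or more UMIs of 8 mitotic genes after thinning, made up 25.7% of control cells (20.8 to 31.0) and 13.4% of floxed cells (10.0 to 17.3). Unthinned the shares were 64.8% and 38.7%. Cycling shares were lower in the floxed library in the other classes too, at 15.9% and 10.6% in principal cells, 21.4% and 11.5% in proximal tubule cells and 23.1% and 17.0% in stroma. The list median was negative in 14 of 16 alternatives, from -0.66 to 0.36.

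Of 17 endoplasmic reticulum stress genes 14 reached 25 CPM and none was called, where 3.58% of all measured genes were. A positive log2 ratio was found for 14 of the 17, with a median of 0.39 (0.19 to 0.44 over 16 alternatives). Hspa5, the main chaperone of the endoplasmic reticulum, stood at 350 and 502 CPM in limb cells and at 290 and 501 CPM in stroma. In stroma the same 17 genes had a median of 0.46. Of 14 injury genes 11 reached 25 CPM, and 3 were called higher (1.3% of all measured genes): S100a6, Krt19 (29.4 and 59.8 CPM), a keratin, and Anxa3 (18.7 and 42.4 CPM), an annexin. Anxa3 reached 25 CPM in the floxed library alone. In distal convoluted tubule cells the 13 injury genes at 5 CPM or more had a median log2 ratio of 0.39. In limb cells the median of the 14 was 0.09. In limb cells Krt19 turned direction when cells were thinned before they were chosen (log2 ratio -0.36). The injury markers Lcn2 and Havcr1 stood at 11.3 and 9.97 CPM and at 0 and 0.196 CPM. Of 19 immediate early and heat shock genes 17 reached 25 CPM. Ier3 alone was called, as higher (189 and 340 CPM), where 1.3% of all measured genes were. The 23 oxidative phosphorylation genes had a median of -0.07 and the 18 glycolysis and hypoxia genes of -0.07. Of the latter 17 reached 25 CPM and Ndrg1 alone was called, as lower (66.2 and 28.0 CPM), where 2.28% of all measured genes were. Of 10 interferon response genes, with a median of -0.53, only Bst2 and Rsad2 reached 25 CPM, and both were called lower (2.28% of all measured genes). In stroma the median of this list was -1.41. Once the cells with over 0.1% of UMIs from other classes' markers were removed Bst2 had a log2 ratio of -0.86, against -1.26, and was no longer called. No gene of the polarity and adhesion list (14 at 5 CPM or more, median -0.06) or the early nephron list (14, median 0.06) was called. Of them 12 and 11 reached 25 CPM, where 3.58% of all measured genes were called.

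Of 15 DNA methylation genes 13 reached 25 CPM, and 2 were called higher and 1 lower, where 1.3% and 2.28% of all measured genes were. Tdg, the glycosylase that removes the oxidised bases that TET enzymes make, stood at 65.1 and 29.3 CPM, 2.22-fold lower (1.84 to 2.69). It was lower in stroma too, at 63.2 and 37.7 CPM, and in principal cells, at 66.9 and 27.5 CPM. Gadd45a and Gadd45g, stress genes linked to demethylation, stood at 17.3 and 34.4 CPM and at 53.95 and 97.2 CPM. Gadd45a reached 25 CPM in the floxed library alone. Without cells holding over 0.1% of UMIs from other classes the log2 ratio of Gadd45g was 0.78, against 0.85, short of the rule. The methyltransferase genes Dnmt1 (49.8 and 48.5 CPM) and Dnmt3a (65.2 and 70.0 CPM) stood close.

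The last comparison set the differences in limb cells against those in stroma. The log2 ratio in limb cells minus that in stroma lay wholly beyond 1.5-fold above 0 for 52 genes (0.925%) and below 0 for 32 genes (0.569%). Pde10a was 2.51 above (2.19 to 2.82), with stroma at 24.8 and 12.3 CPM, and S100a6 was 1.87 above (1.71 to 2.03), with stroma at 490 and 343 CPM. Klk1, tissue kallikrein, stood at 125 and 264 CPM in limb cells and at 4.90 and 2.18 CPM in stroma, a difference of 2.23 (1.69 to 2.77). Fgfbp1, which carries fibroblast growth factors, was 2.60 above (1.97 to 3.24). Below stroma stood Emp1 at -1.63 (-2.09 to -1.17), Plagl1, an imprinted zinc finger gene, at -1.35 (-1.61 to -1.09), and the orphan receptor gene Esrrb at -2.26 (-3.80 to -0.73), which had few UMIs in stroma.

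Against principal cells the difference lay beyond 1.5-fold above 0 for 57 genes (1.01%) and below 0 for 39 (0.694%), and against proximal tubule cells for 27 (0.48%) and 46 (0.819%). Akr1b3 was lower in principal cells as well, at 433 and 313 CPM. Ndrg1 stood at 522 and 496 CPM in proximal tubule cells. In limb cells without those holding over 0.1% of UMIs from other classes its log2 ratio was -0.46, against -1.24, and it was not called.

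The distal convoluted tubule, the next segment along the nephron, had 37 and 39 cells, so its intervals were wide. The log2 ratio in limb cells lay beyond 1.5-fold above that in distal convoluted tubule for 23 genes (0.409%) and below it for 41 (0.73%). Fgfbp1 was 2.33 above (1.18 to 3.47) and Abca13, a lipid transporter, 4.66 above (2.31 to 7.01), at 42.4 and 18.2 CPM in limb cells and 163 and 1.86 CPM in distal cells. Abca13 was lower in the floxed library in both classes. Its floxed distal level rests on very few UMIs, from a class total of 536686. Lgals3, a galectin, had a difference of -2.10 (-2.45 to -1.76), at 214 and 168 CPM in limb cells and 138 and 468 CPM in distal cells.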

How the data were processed

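Whole-kidney cells of newborn mice were measured by droplet RNA sequencing in 1 control and 1 floxed library. The authors deposited unnormalised UMI counts per gene and barcode for 31053 genes, made with Cell Ranger against mm10 (version 6.0.2 per the submitters' processing notes, 6.0.1 per the file headers). The members and gene lists were chosen with earlier results of these data known.

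Counts of member cells were summed per library and divided by the library's member total to give CPM. Ratios carry exact conditional binomial 95% intervals, shares Clopper-Pearson ones, and differences of log2 ratios between classes intervals from Poisson variance. A gene was called when it reached 25 CPM in the higher library and its interval lay wholly beyond 1.5-fold. With 1 library a group no test was made. Named genes were all list members, the 12 most extreme called genes each way (without mitochondrial, ribosomal, haemoglobin, predicted, Xist, Y-linked and rule genes and genes under 0.2 of the level in a comparison class), the 20 most enriched over the comparison classes and the 6 most extreme class differences each way; other genes named were chosen after their values were seen. Some genes that this rule names are not reported here. Of 397 named genes 395 matched the RefSeq table (GRCm38.p6). The comparison classes held 3984 and 2825 stroma, 502 and 312 proximal tubule, 635 and 579 principal and 37 and 39 distal convoluted tubule cells.

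Doublets were kept; an alternative removed the 8% of cells with the highest scrublet scores, among them 41 control and 40 floxed members. Other alternatives changed the cell filter, the membership rule, thinning, scaling, minimum level and removal of cells with other classes' markers. Scripts were tested on simulated data. The work used scanpy 1.11.5, scipy 1.17.1 and pandas 2.3.3 under Python 3.11.15, and edgeR 4.0.16 (TMM factors only) under R 4.3.3.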

Additional observations from a re-analysis of the deposited data

Results flagged for a closer look

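Among the genes farthest above or below stroma, 6 that reached 5 CPM in stroma had log2 ratios of opposite sign in thick ascending limb cells and in stroma, each difference being the log2 ratio (floxed over control) in limb cells minus that in stroma. With 1 library per genotype the difference was not tested across animals, and the intervals cover counting error only. Fgfbp1 had a difference of 2.60 (1.97 to 3.24), at 69.7 and 103 CPM in limb cells and 6.09 and 1.46 CPM in stroma. Pde10a had a difference of 2.51 (2.19 to 2.82). Gadd45b, a stress gene, had a difference of 2.17 (1.80 to 2.53), at 22.7 and 39.1 CPM in limb cells and 40.2 and 15.4 CPM in stroma. S100a6 had a difference of 1.87 (1.71 to 2.03). Atf3, a stress-induced transcription factor, had a difference of 1.76 (1.42 to 2.11), at 42.2 and 57.3 CPM in limb cells and 25.3 and 10.1 CPM in stroma. Plagl1 had a difference of -1.35 (-1.61 to -1.09), at 63.0 and 37.7 CPM in limb cells and 103 and 158 CPM in stroma.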

How the results depend on the processing

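No paired analysis was possible because each genotype had 1 library. The ratio of shares, 1.65, was 2.04 with Slc12a3 and Aqp2 both at 0, 2.01 with a stricter and 1.18 with a looser cell filter, 1.30 over the 10000 deepest barcodes, 4.56 without cells holding 3 or more UMIs of other classes' markers, and 1.95 without cells holding over 0.1% of them, an alternative chosen after seeing the data. The counts of 73 higher and 128 lower genes became 30 and 41 with cells thinned before the rule (17 and 20 of them shared with the main counts), 40 and 34 without cells holding 3 or more such UMIs, 265 and 361 with the mean of per-cell CPM, 127 and 226 at a minimum of 10 CPM, 48 and 75 at 50 CPM, and 198 and 385 with no minimum.

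Log2 ratios that turned sign with thinned cells were those of Ccna2 (0.39), Cd93 (0.54, on levels of 9.55 and 13.9 CPM, a few UMIs), Emcn (0.39), Krt19 (-0.36) and Tmem52b (-0.60). Without cells holding 3 or more UMIs of other classes' markers, which left 52 control cells, those of Cenpf (0.094), Emcn (0.77), Nusap1 (0.32), Plpp1 (0.47) and Top2a (0.71) turned. With the highest doublet scores removed that of Pf4 (-0.44) turned. With thinned classes the differences from distal convoluted tubule turned for Plagl1 (0.62), Prelid2 (-0.40), S100a6 (-0.77) and Wscd1 (-1.40). The cause was not tested. Of the other values, 1678 stayed within the main value's interval (for lists, close to the main median) and 518 moved beyond it.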
